A study of Mastomys natalensis with 3 samples.

Results

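The insulin-like growth factor (IGF) system was examined on 3 rat expression arrays hybridised with gastric RNA of Mastomys natalensis, a rodent in which gastric carcinoids can arise. Members were all probe sets whose gene symbol in the platform annotation was Igf1, Igf2, Igf1r, Igf2r or one of Igfbp1 to Igfbp6. This gave 24 of 8740 non-control probe sets, covering 9 of the 10 genes. For Igfbp4 no probe set was named in the annotation used, so it was not analysed here. The brightest Igf1 probe set read higher at 16 than at 8 weeks of loxtidine, as did a second Igf1 pair, while the probe set sharing the brightest one's sequence record read lower. The brighter Igfbp2 and Igfbp5 probe sets, by contrast, read highest on the 8-week array, with most readings near background.

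One array held RNA from animals given loxtidine for 8 weeks, another from animals given it for 16 weeks, and the third from animals in which an enterochromaffin-like (ECL) cell carcinoid had arisen spontaneously. Loxtidine blocks the histamine receptor of the parietal cell and so lowers acid secretion. ECL cells are endocrine cells of the gastric mucosa that store histamine, and the labels describe every sample as enriched for them, although the source field reads ECL cells for the 8-week sample and mucosa for the others. The number, age and sex of the animals, whether they were pooled, and whether the carcinoid animals received any drug are not given in the sources used here. No array of untreated animals was used here. With 1 array per group, no difference has a standard error or a test, and every value describes these arrays.

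The IGF system couples growth hormone and nutrition to cell growth. The ligands IGF1 and IGF2 act through the receptor tyrosine kinase IGF1R, whereas IGF2R, which is also the mannose 6-phosphate receptor, takes up IGF2 for degradation. Secreted binding proteins hold the ligands outside cells, extend their life in the circulation and either block or aid their access to the receptor. In many solid tissues fibroblasts and smooth muscle cells are sources of the ligands and of several binding proteins, which act on neighbouring epithelium.

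The 8-week array stood apart from the others. Its GAPDH 5' control probe set read 37.3 as deposited, against 364 at 16 weeks and 344 in the carcinoid. The ratio of the GAPDH 3' to 5' control was 8.95, 1.43 and 2.31 in that order. Median deposited intensities were 10.2, 13.1 and 13.9, and the arrays were quantile normalized together to remove such shifts. Of the ECL cell markers chosen for this check, 8 of 9 had a probe set. At 8 weeks 5 of them reached the floor (12.4, the median of all normalized values), at 16 weeks 6 and in the carcinoid 5. Histidine decarboxylase (Hdc), the enzyme that makes histamine, stayed below the floor on every array. The summed normalized intensity of these markers was 250, 238 and 152, whereas as deposited it was highest at 16 weeks (192, 255 and 172). The 10 fibroblast and matrix markers summed to 1545, 633 and 562 (949, 677 and 679 as deposited). Decorin (Dcn) alone gave 1090.5, 317 and 262 of these normalized sums. Without it the other 9 summed to 454, 316 and 300 after normalization but to 330, 339 and 344 as deposited. As deposited Dcn and Col3a1 were highest at 8 weeks, Sparc at 16 weeks and all other fibroblast and matrix markers in the carcinoid. The 4 parietal cell markers summed to 1357, 1804 and 1306 (811, 1951 and 1727 as deposited). For the 2 chief cell markers the sums were 7966, 10037 and 7750 (6733, 13103 and 8042 as deposited). The 5 mucous cell markers gave 1346, 1197 and 1627 (837, 1271 and 2020 as deposited). The 6 smooth muscle markers summed to 72.2, 103 and 110, the 5 leukocyte markers to 235, 93.3 and 56.7, and the 5 endothelial markers to 136, 55.1 and 62 after normalization. The 8-week array had the lowest smooth muscle and the highest leukocyte and endothelial sum as deposited too. On that scale C1qb and Cd74 were highest at 8 weeks, but the other leukocyte markers (Ptprc, Lyz2 and Cd14) at 16 weeks. Of the endothelial markers Flt1 and Selp were highest at 8 weeks, Kdr and Vwf at 16 weeks and Pecam1 in the carcinoid. Among smooth muscle markers Acta2, Myh11 and Cnn1 were lowest at 8 weeks, Tagln and Des at 16 weeks and Actg2 in the carcinoid. In such mixed samples fewer cells of a type and less RNA per cell cannot be told apart. The lot label differed between all 3 arrays, so that group and lot cannot be told apart.

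Most members were dim. Of the 24 probe sets, 17 reached the floor on at least 1 array (70.8%, against 70.8% of all non-control probe sets), and 5 did so on all 3 (20.8%, against 30.5%). The remaining 7 stayed below it throughout. They were 1 Igf1, 2 Igf2, 1 Igfbp2, 1 Igfbp3 and 1 Igfbp5 probe set and the only one for Igfbp1. As a second measure of background, 38 controls presumed to find no partner in gastric RNA (called no-target controls) read up to 34.6, 31.3 and 55.3 as deposited. Above the highest of these lay 4 members at 8 weeks, 5 at 16 weeks and 3 in the carcinoid (16.7%, 20.8% and 12.5%). Of all non-control probe sets, 15.4%, 25.9% and 14.1% did so, so dimness was not particular to the members. Among the members, only the bright Igf1 and the bright Igf2 probe set, X06107_r_at and M17960_g_at, did so on every array. Rat probes met Mastomys RNA, so a dim probe set can also reflect sequence differences, and levels of different probe sets were not set against each other.

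**Figure D1:**
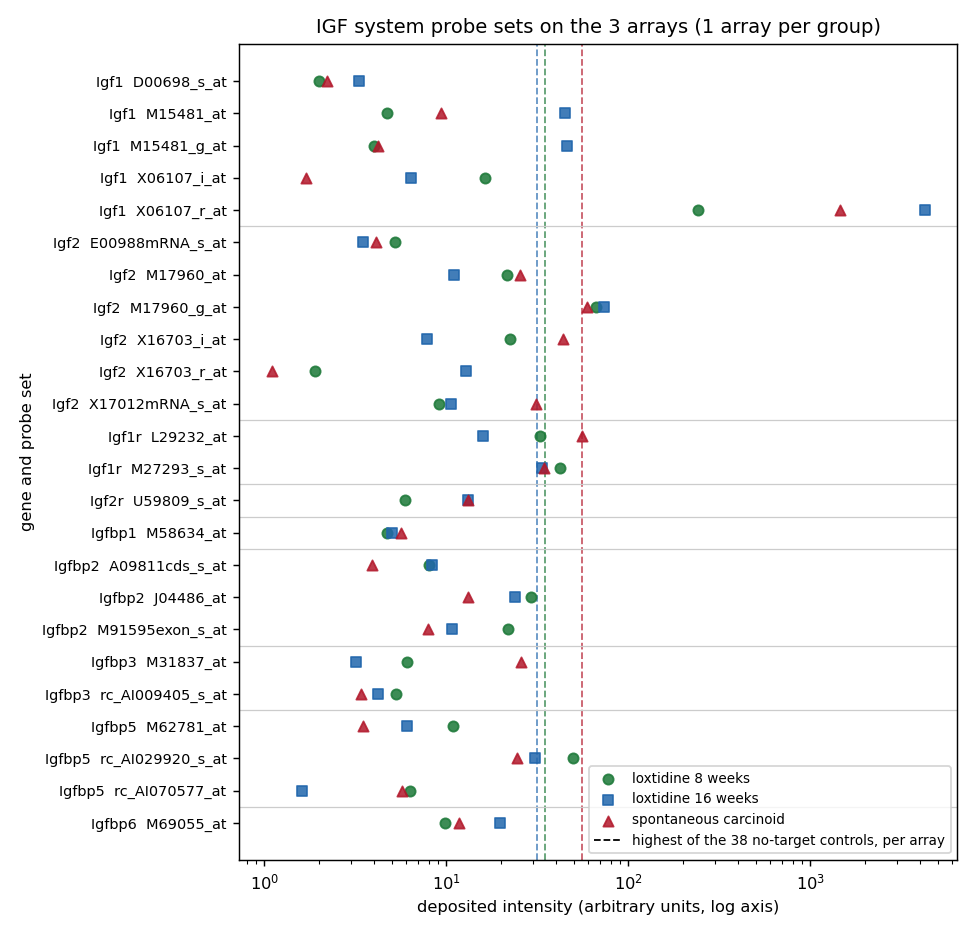
Deposited intensity (horizontal, log axis, arbitrary units) of the 24 probe sets of the IGF system, 1 row per probe set and 1 symbol per array. Dashed lines mark the highest of the 38 no-target controls on each array; X06107_r_at (Igf1) and M17960_g_at (Igf2) are the rows with all 3 symbols to the right of their own array's line.

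Igf1 encodes the growth-hormone-regulated ligand, and it had 5 probe sets. The brightest, X06107_r_at, read 240.4 at 8 weeks, 4249 at 16 weeks and 1458 in the carcinoid as deposited. After normalization these were 373, 3724 and 1090.5. The 16-week array was thus 9.98-fold above the 8-week array, the carcinoid was 2.92-fold above 8 weeks, and the carcinoid was 3.41-fold below 16 weeks. As deposited the same differences were 17.7-fold, 6.06-fold and 2.91-fold. Of the 2567 probe sets with 1 symbol that were measured at both 8 and 16 weeks, 7 others differed by at least as much as X06107_r_at. For the carcinoid the corresponding numbers were 189 of 2526 against 8 weeks and 30 of 2701 against 16 weeks.

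The remaining Igf1 probe sets moved with it in part. M15481_at read 4.7, 44.9 and 9.4 as deposited in the order 8 weeks, 16 weeks and carcinoid. M15481_g_at, named for the same sequence record and therefore not independent of it, read 4, 46.2 and 4.2. Both were above the floor and above every no-target control at 16 weeks only. At 16 weeks the former was at least 3.36-fold and the latter at least 3.46-fold above 8 weeks, and both were lower by the same bounds in the carcinoid than at 16 weeks. With the floor raised to 30.0 these bounds shrank to 1.39-fold and 1.43-fold.

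X06107_i_at carries the record of the brightest probe set and went the other way. It read 16.4 at 8 weeks, 6.4 at 16 weeks and 1.7 in the carcinoid. Only the 8-week value reached the floor, so it was at least 1.59-fold lower on both other arrays. None of its values exceeded the highest no-target control. D00698_s_at read 2, 3.3 and 2.2 and was below the floor throughout. For 16 against 8 weeks, 3 of the 4 Igf1 probe sets with a value were higher and 1 was lower. For the carcinoid against 16 weeks, all 3 with a value were lower. For the carcinoid against 8 weeks only the X06107 probe sets had a value, and they disagreed in sign. The 16-week excess of Igf1 was therefore shared by probe sets of 2 records, while the excess of the carcinoid over 8 weeks rested on X06107_r_at alone.

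**Figure D2:**
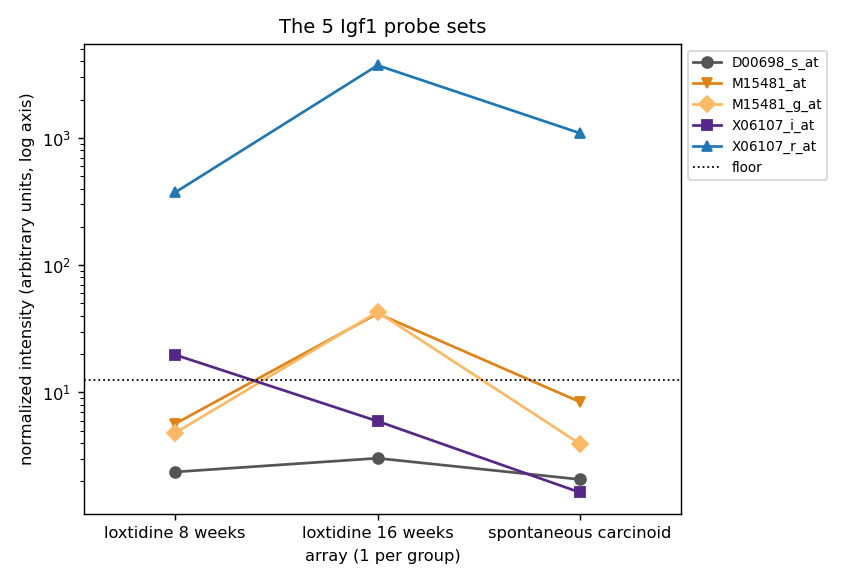
Normalized intensity (vertical, log axis, arbitrary units) of the 5 Igf1 probe sets on the 3 arrays, with the floor of 12.4 as a dotted line; lines join the values of a probe set and imply no time course. X06107_r_at and both M15481 probe sets peak on the 16-week array, X06107_i_at is highest at 8 weeks, and D00698_s_at stays below the floor.

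In the manufacturer's naming, the endings _i_at and _r_at mark probe sets for which the full number of unique probes was not found or the selection rules were relaxed, _g_at marks probes in a region common to a group, and _s_at marks probes that match several similar transcripts. How often such sister probe sets disagree was counted over the whole array. For 16 against 8 weeks, 14 of 31 _i_at and _r_at pairs had a value on both sides, and 7 of them pointed in opposite directions. Of 439 _at and _g_at pairs with a value on both sides, 190 (43.3%) did so. The shares were 33.3% (of 15) and 42.0% (of 452) for the carcinoid against 8 weeks. They were 61.5% (of 13) and 48.4% (of 426) for the carcinoid against 16 weeks. Disagreement in sign between sister probe sets was thus common on these arrays. These counts include small differences and bounds. Between probe sets of the same gene that were measured on both arrays, the spread of a log2 difference was 0.79, 0.82 and 0.62 for the 3 comparisons in the order just used. It is the root mean square gap between the brightest pair of such probe sets, scaled to a single probe set. The gap itself exceeded 1 in 34.1%, 39.5% and 25.4% of genes with such a pair. The bright Igf1 difference of 3.32 between 16 and 8 weeks was larger than that spread, which holds no variation between animals. Igf1 itself did not enter the spread, because X06107_r_at was its only probe set measured on both arrays. The spread therefore does not cover the disagreement with X06107_i_at, a bound at -0.67 in that comparison.

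**Figure D3:**
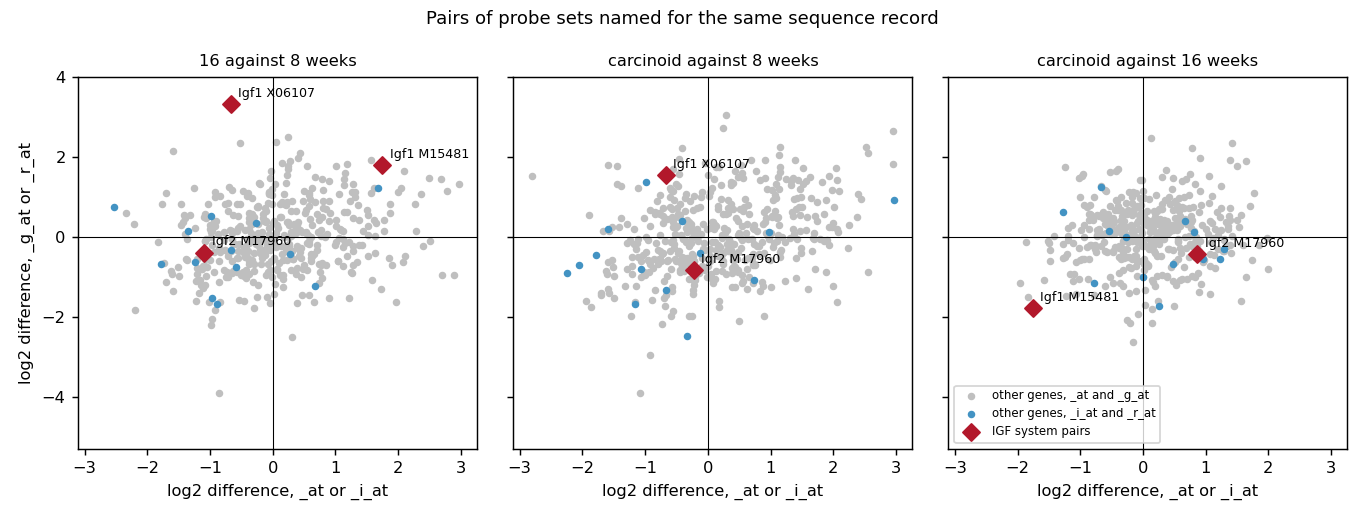
Log2 difference of an _at or _i_at probe set (horizontal) against that of the _g_at or _r_at probe set named for the same record (vertical), 1 panel per comparison, with bounds plotted at their value. Diamonds are IGF system pairs: the M15481 pair of Igf1 lies in a same-sign quadrant, the X06107 pair of Igf1 in an opposite-sign quadrant in both panels that show it, and the M17960 pair of Igf2 in an opposite-sign quadrant for the carcinoid against 16 weeks.

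Igf2, the second ligand, which is expressed mainly in fetal tissue in rodents, had 6 probe sets. The brightest, M17960_g_at, read 66.3, 73.3 and 59.1 as deposited and 90.3, 68.8 and 50.9 after normalization. The 16-week array was 1.31-fold lower than 8 weeks after normalization but 1.11-fold higher as deposited, so this probe set gave no direction. The carcinoid was 1.77-fold below 8 weeks and 1.35-fold below 16 weeks (1.12-fold and 1.24-fold as deposited).

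Its sister M17960_at read 21.5, 11 and 25.3, and X16703_i_at read 22.5, 7.8 and 43.8. Both were lowest at 16 weeks, at least 2.13-fold and at least 2.23-fold below the 8-week array. In the carcinoid M17960_at read at least 1.83-fold and X16703_i_at at least 3.09-fold above 16 weeks. X17012mRNA_s_at reached the floor in the carcinoid only, where it read 31.1 against 9.1 and 10.6, at least 2.25-fold above either array. X16703_r_at read 1.9, 12.8 and 1.1 and E00988mRNA_s_at read 5.2, 3.5 and 4.1, both below the floor on every array after normalization. Thus 3 of 4 Igf2 probe sets with a value read higher in the carcinoid than at 16 weeks while the brightest read lower. All Igf2 values other than those of M17960_g_at lay at or under the highest no-target control of their array.

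Igf1r, the signalling receptor, was measured on all arrays by 2 probe sets. M27293_s_at read 41.9, 33.6 and 34.2 as deposited. After normalization it was 1.77-fold lower at 16 weeks and 1.81-fold lower in the carcinoid than at 8 weeks (1.25-fold and 1.23-fold as deposited). The other, L29232_at, read 32.5, 15.8 and 55.5. It was 2.79-fold lower at 16 weeks than at 8 weeks and 3.22-fold higher in the carcinoid than at 16 weeks (2.06-fold and 3.51-fold as deposited). Both probe sets were therefore lower at 16 than at 8 weeks, by 0.83 and 1.48 on the log2 scale. They differed on the carcinoid, where M27293_s_at was 1.02-fold below the 16-week array (1.02-fold above it as deposited). With the floor at 30.0, L29232_at was at least 1.39-fold lower at 16 weeks.

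Igf2r, the scavenging receptor, was represented by U59809_s_at, which read 5.9, 13.2 and 13.2. The 16-week value just reached the floor and the others did not, so no difference could be measured.

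The binding proteins were dim, and those with a value split between the arrays. Igfbp5, which is bound to extracellular matrix and is made by fibroblasts and smooth muscle among others, read 49.7, 30.8 and 24.3 on its brightest probe set, rc_AI029920_s_at. After normalization it was 2.31-fold lower at 16 weeks and 3.03-fold lower in the carcinoid than at 8 weeks. As deposited these differences were 1.61-fold and 2.05-fold. A second, M62781_at, read 10.9, 6.1 and 3.5 and just reached the floor at 8 weeks, and the last, rc_AI070577_at, was below it on each array.

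Igfbp2, a binding protein that prefers IGF2, read 29.1, 23.8 and 13.2 on J04486_at. Relative to 8 weeks it was lower at 16 weeks (1.64-fold) and in the carcinoid (at least 2.97-fold). As deposited these differences were 1.22-fold and 2.20-fold. M91595exon_s_at read 21.8, 10.7 and 7.9, and was at least 2.16-fold lower on both other arrays than at 8 weeks (at least 1.79-fold as deposited). The last Igfbp2 probe set, A09811cds_s_at, read 8, 8.3 and 3.9, below the floor. Both Igfbp2 probe sets with a value and both Igfbp5 probe sets with a value were thus highest on the 8-week array. Their deposited readings were highest there as well, although M62781_at of Igfbp5 was below the floor of that scale on every array. The leukocyte and endothelial marker sums were highest there too, on both scales. So was the fibroblast and matrix sum, which without Dcn was lowest there as deposited, and the smooth muscle sum was lowest there. As deposited, some markers of each of these lists went against their sums, among them all fibroblast and matrix markers but Dcn and Col3a1. The part of these cell types in the Igfbp2 and Igfbp5 differences was not tested.

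Igfbp3, the main carrier of IGF1 in blood, reached the floor in the carcinoid only. M31837_at read 6.1, 3.2 and 25.6, at least 1.84-fold above either loxtidine array. Its other probe set, rc_AI009405_s_at, was below the floor, at 5.3, 4.2 and 3.4. Igfbp6, which binds IGF2 in preference, read 9.8, 19.7 and 11.7 and was above the floor at 16 weeks only, by at least 1.5-fold over both others. Igfbp1, made chiefly by the liver and raised by fasting, read 4.7, 5 and 5.6, below the floor on every array. All values of Igfbp1, Igfbp2, Igfbp3 and Igfbp6 lay within the range of the no-target controls. Of the Igfbp5 values only the 8-week reading of rc_AI029920_s_at (49.7) exceeded the highest of these controls.

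**Figure D4:**
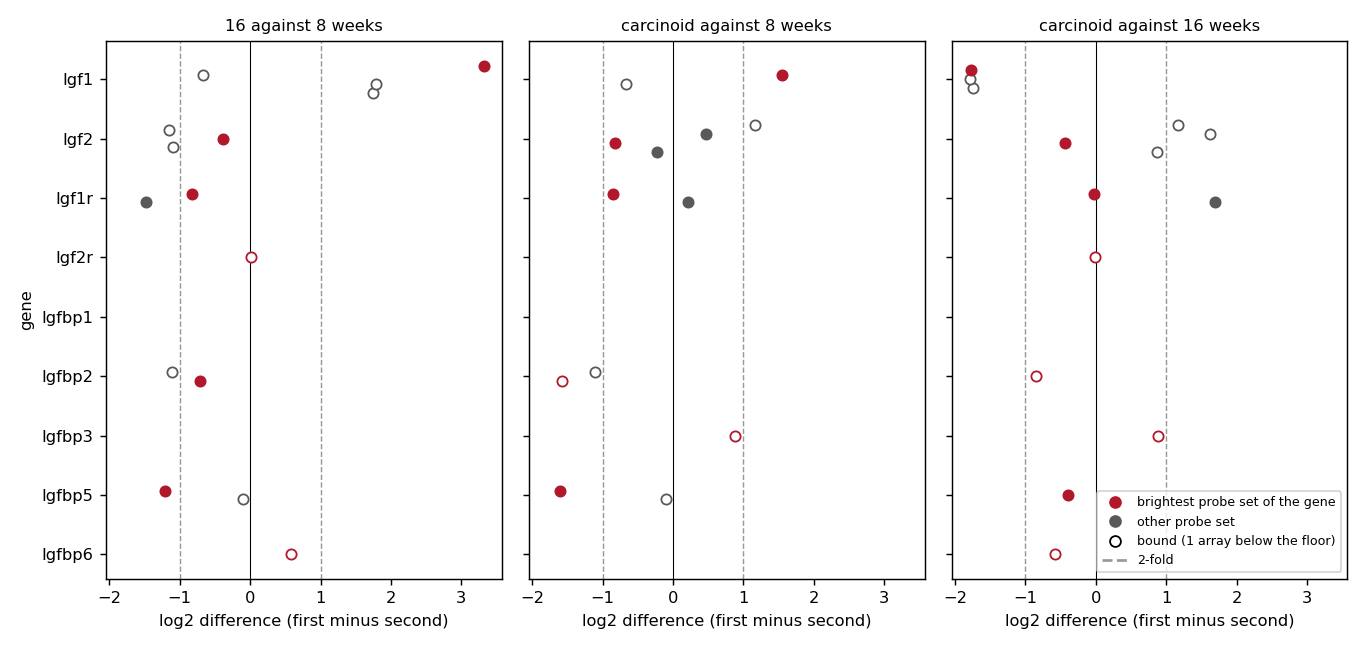
Log2 difference between arrays (horizontal, first array of the title minus the second) for each probe set of the IGF system with a value, by gene, 1 panel per comparison. Filled points were measured on both arrays, open points are bounds, and dashed lines mark 2-fold. The brightest Igf1 probe set lies farthest right for 16 against 8 weeks, while X06107_i_at of Igf1 lies left of zero. For the carcinoid against 8 weeks the brightest Igfbp5 and both Igfbp2 probe sets lie left of the 2-fold line, but M62781_at of Igfbp5 lies at -0.10.

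Taking each gene by its brightest probe set, 7 of the 9 genes had a value for 16 against 8 weeks. One (Igf1) was at least 2-fold higher and 1 (Igfbp5) at least 2-fold lower. Over all genes with a value, 14.0% were at least 2-fold higher and 12.9% at least 2-fold lower, so these counts lie near the background. For the carcinoid against 8 weeks, Igf1 was higher and Igfbp2 and Igfbp5 were lower, out of 6 genes with a value. The shares over all genes were 14.6% higher and 13.7% lower. In the carcinoid against 16 weeks, 0 of 8 genes were at least 2-fold higher and 1, Igf1, was lower, against 9.41% and 9.29% of all genes. Counted by probe set, 3 of 15 members were at least 2-fold higher and 5 at least 2-fold lower at 16 than at 8 weeks, against 13.9% and 13.0% of all probe sets. The counts were 2 and 3 of 13 for the carcinoid against 8 weeks (14.6% and 14.0% of all), and 3 and 3 of 14 against 16 weeks (9.38% and 9.67% of all). Several of these share a gene or a sequence record. By gene, the median log2 difference of the members was -0.39, -0.84 and -0.41 in these comparisons, against 0.01, -0.02 and 0.01 for all genes. As deposited the member medians were 0.11, -0.17 and -0.33, against 0.38, 0.45 and 0.09 for all genes. The first of them thus changed sign with the scaling. On that scale Igfbp5 was no longer 2-fold lower at 16 than at 8 weeks, and no gene of the system was by its brightest probe set, although L29232_at of Igf1r remained 2.06-fold lower. Igfbp3 was then at least 2-fold higher in the carcinoid than at either time. The members' shift was not tested against that of other genes.

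Other genes of the pathway were taken from a list of 69 genes of the growth hormone axis, insulin and its receptors, adaptor proteins, the PI3K-Akt and MAPK branches, and the turnover of IGFs and their binding proteins. Of these, 53 had a probe set and 46 reached the floor on at least 1 array. For 16 against 8 weeks, 5 of 42 genes with a value were at least 2-fold higher and 4 lower, with a median of -0.22 (9 higher, 2 lower and a median of 0.29 as deposited). In the carcinoid against 8 weeks, the counts were 4 and 6 of 45 and the median was 0.02 (10 and 4, with a median of 0.50, as deposited). Against 16 weeks the counts were 4 and 4 of 43 and the median was -0.06. These shares are again of the order of the background just given.

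Growth hormone receptor (Ghr), through which growth hormone induces Igf1, had the largest difference on the list among genes measured on both arrays after normalization. S49003_s_at read 370 at 8 weeks, 361 at 16 weeks and 135 in the carcinoid as deposited. After normalization the carcinoid was 4.94-fold below 8 weeks and 3.05-fold below 16 weeks (2.74-fold and 2.67-fold as deposited). Both other Ghr probe sets read 4.4 or less on every array. Stat5b, a transcription factor activated by that receptor, read 29.5, 77.7 and 27.3. It was 2.98-fold lower in the carcinoid than at 16 weeks, and 1.94-fold higher at 16 than at 8 weeks. The single probe set of Stat5b thus had its highest reading on the same array as X06107_r_at. Ghr did not: at 16 weeks it was 1.62-fold below 8 weeks after normalization (1.03-fold as deposited). Of 9 growth hormone axis genes with a value, 0 were at least 2-fold higher and 0 lower at 16 than at 8 weeks (14.0% and 12.9% of all genes). Ghsr, the ghrelin receptor, was 2.19-fold higher in the carcinoid than at 16 weeks on U94321_at (37.2 against 15.8). Its probe set AB001982_g_at was at least 1.07-fold lower. The U94321_at readings lay under the highest no-target control of their arrays.

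Among the insulin genes and receptors, the insulin-receptor-related receptor Insrr was 2.19-fold lower in the carcinoid than at 8 weeks (1.25-fold lower as deposited). Other Insrr probe sets gave bounds in the opposite direction of at least 1.79-fold and at least 1.52-fold. The insulin receptor Insr was below the floor on each array. The adaptor Irs2, which links both receptors to PI3K, was 2.58-fold higher at 16 than at 8 weeks on AF050159_at (35.6 against 10.6). The 8-week value after normalization, 12.9, barely exceeded the floor, and as deposited the difference was a bound of at least 2.92-fold. On U89743_at Irs2 was 1.63-fold lower. Irs1, a relative of Irs2, was at least 2.5-fold higher at 16 weeks. Pik3r1, the regulatory subunit of PI3K, was 2.28-fold higher in the carcinoid than at 16 weeks (90.4 against 35.7).

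In the MAPK branch, the small GTPase Nras was 4.31-fold higher at 16 than at 8 weeks (60.5 against 10.8). The 8-week value after normalization, 13.1, barely exceeded the floor, and as deposited the difference was a bound of at least 4.96-fold. Nras was 2.39-fold lower in the carcinoid than at 16 weeks, while its second probe set stayed below the floor. Map2k2, a kinase downstream of Ras, was 2.24-fold lower at 16 weeks and 2.16-fold lower in the carcinoid than at 8 weeks on its brightest probe set, or 1.42-fold and 1.17-fold as deposited. On L14936_at it was 2.07-fold and 3.76-fold higher, and on rc_AA957896_s_at 1.99-fold higher at 16 weeks and at least 1.76-fold lower in the carcinoid. The urokinase gene Plau, whose product activates plasmin, a protease that can cleave binding proteins, was 2.16-fold higher in the carcinoid than at 16 weeks (39.1 against 16.8). Both Plau readings lay under the highest no-target control of their array. Mmp2, a matrix protease also able to cleave binding proteins, was at least 3.99-fold lower on both other arrays than at 8 weeks. As deposited it was at least 3.13-fold lower, and only the brighter of its 2 probe sets was examined.

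The probe sets most like X06107_r_at were sought among 2160 probe sets of other genes that reached the floor on all 3 arrays, by the distance between their log2 differences from the 8-week array. This likeness rests on 3 arrays that share the 8-week baseline. The nearest was a probe set of Eif4a2, a translation initiation helicase, at a distance of 0.63 and with 12.1-fold and 4.33-fold over 8 weeks at 16 weeks and in the carcinoid. Then came the aminopeptidase Aopep (0.64), the tRNA-modifying enzyme Dus1l (0.81), a second Eif4a2 probe set (0.90) and the mucin Muc5ac (0.93). All 5 read 29.9 or less as deposited on the 8-week array, where X06107_r_at read 240.4. The 8-week array is that with the dim GAPDH 5' control, and the part of this in the Igf1 difference was not tested.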

How the data were processed

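RNA of 3 samples was measured on rat Affymetrix arrays, 1 per group, with groups taken from the sample descriptions. The deposited table holds 1 linear intensity per probe set and array, as the authors made it; how signals were summarised, corrected and scaled is not given in the sources used here. The arrays' number limits precision. Because 2% trimmed means (17.9, 25.1 and 27.2) differed by over 5%, the 3 arrays were quantile normalized. Values below the floor, the pooled non-control median of 12.4, took the floor's value before log2. A fold needs both arrays at the floor, a bound ("at least") 1 of them. A bound of 2-fold or more was counted as 2-fold apart. Genes took their probe set of highest mean deposited intensity. Of 8740 non-control probe sets, 7006 had 1 symbol, 308 several and 1426 none in the platform annotation provided, and only those with 1 symbol were named. Named were every member probe set, pathway genes measured on both arrays and at least 2-fold apart, and the 5 probe sets nearest to the brightest Igf1 one. Irs1, Insr and Mmp2 were named beside these after their values were seen. No test was possible. Members, lists and cell type markers were chosen with earlier results of these data known. Steps were tested on simulated data (Python 3.11.15, NumPy 2.4.6, pandas 2.3.3). Alternatives changed scaling, floor, log transform and the probe set per gene.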

Additional observations from a re-analysis of the deposited data

How the results depend on the processing

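No paired analysis was possible because each group had 1 array, and no array could be left out of a group. The bright Igf1 probe set kept its direction under the alternatives of scaling, log transform and arrays normalized together. All its values lay above every floor used, so the choice of floor could not change its differences. The 2 choices of probe set per gene do not apply to it. As deposited its log2 difference was 4.14 for 16 against 8 weeks and 2.60 for the carcinoid against 8 weeks, the values that moved by more than the spread between probe sets. Counts of members here are of genes, by 1 value per gene. Those at least 2-fold lower at 16 than at 8 weeks numbered 0 as deposited, 0 with log2 of the value plus the floor, and 2 with the median over probe sets. For the carcinoid against 8 weeks, members higher numbered 2 as deposited, 2 with the floor at the 25th percentile (4.2), 0 with the median over probe sets and 0 without _i_at and _r_at probe sets, a choice made after seeing the data. Members lower numbered 1 with the floor at the 75th percentile (30.0) and 1 with the median over probe sets. For the carcinoid against 16 weeks, 1 member was higher as deposited, 1 with the floor at 4.2, 1 with log2 of the value plus the floor and 1 with the median over probe sets. Pathway genes higher at 16 than at 8 weeks numbered 9 as deposited, 0 with the floor at 30.0 and 3 with log2 of the value plus the floor. Those lower numbered 2 as deposited, 1 with the floor at 30.0 and 2 with the median over probe sets. In the carcinoid against 8 weeks, pathway genes higher numbered 10 as deposited, 7 with the floor at 4.2 and 0 with it at 30.0, and those lower numbered 10 and 3 at these floors. Against 16 weeks, those higher numbered 7 and 1 at these floors and 1 with log2 of the value plus the floor, and those lower 7 and 2. A floor changes how many genes have a value; the cause of the other changes was not tested. Normalizing only the arrays compared, also added later, moved no count by over 1.5 times. Among all genes at least 2-fold apart, the higher share went from 52.1% to 78.2% (16 against 8 weeks) and from 51.6% to 81.7% (carcinoid against 8 weeks) as deposited. Of 212 other member values under alternatives, 195 moved by less than the spread between probe sets, 17 by more, and 0 values at least 2-fold apart changed sign. Signal near background limits all members but the bright Igf1 and Igf2 probe sets.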
